A study of Mus musculus with 12 samples.

Results

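The 10 genes Uaca, Maged1, Sbf2, Egln3, Slc44a1, Drd5, Rnf130, Rcn1, Myl10 and Pld4 were chosen by a large difference in signal between T cell lymphomas of TCF-1 KO mice and the DN3 thymocytes of such mice, from 19938 genes with a row of their own. The first 6 stood higher in the lymphomas, at ranks 3 to 24 of all rises, and the last 4 lower, at ranks 2 to 27 of all falls. Lymphoma and TCF-1 KO DN3 values therefore made the choice, and their differences are given as a description; calls on them are counted beside the background and support nothing. TCF-1 binds DNA through an HMG box and acts in early T cells, and DN3 thymocytes are CD4-CD8- cells at the stage of T cell receptor beta rearrangement. Wild-type DN3 cells and TCF-1 KO DN3 cells had 3 arrays each and lymphoma cells 6, all labelled C57/BL6 and as biological replicates. All cells came from the thymus by sorting. The lymphomas carried the same TCF-1 KO genotype as the second DN3 group, and wild-type lymphomas were not analysed here. Donors of DN3 cells were 8 to 12 weeks old and lymphoma-bearing mice 12 to 40 weeks, so age, tumour growth and the cell stage of the tumours cannot be told apart. The labels name neither the mutant allele nor the surface markers of the tumour sort. In sorted bulk cells, fewer cells that express a gene and less of its RNA per cell cannot be told apart either.

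The 10 genes belong to different pathways. Egln3 is an oxygen-dependent prolyl hydroxylase that marks HIF transcription factors for destruction and is itself induced by HIF. Slc44a1 carries choline, the head group of phosphatidylcholine, across membranes. Drd5 is a dopamine receptor that couples to cAMP production. Myl10, also named the precursor lymphocyte-specific regulatory light chain, is a myosin light chain, and Pld4 is an endolysosomal exonuclease that trims single-stranded nucleic acids before Toll-like receptors sense them.

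Signals are log2 values per transcript cluster, and the array medians lay between 5.30 and 5.39. The number of arrays limits the precision. In 34 unnamed rows the arrays parted: replicate 1 of each DN3 group and lymphomas 1 and 2, the smaller array set, had medians of 6.02 to 6.35, and the remaining 8 arrays, the larger array set, had 8.34 to 9.04. The labels name no batch. Xist, the RNA of the inactive X chromosome, was at 4.13 to 4.40 on TCF-1 KO replicate 3 and lymphomas 1, 2 and 6, and at 10.10 to 10.58 elsewhere. T lineage markers (7 of 8 measured, among them Cd3e, Cd3g and Thy1) had summed linear signals of 7816 to 7949 in wild-type DN3 cells, 7582 to 8112 in TCF-1 KO DN3 cells and 7554 to 8644 in lymphomas. The 7 DN3 stage markers summed to 3770 to 3925, 3026 to 3943 and 1855 to 3080; Rag1, a recombinase subunit, fell by 1.62 from TCF-1 KO DN3 cells to lymphomas (SE 0.37, limma adjusted p = 0.023) and Ptcra, the pre-T cell receptor alpha chain, by 0.64 (SE 0.17, adjusted p = 0.047). The other 5 did not pass. Of these, Rag2 differed by -0.89, Notch1 by -0.48 and Il2ra by -0.23, and the Notch targets Hes1 by 0.72 and Dtx1 by 0.29. Against wild-type DN3 cells Dtx1 rose by 0.92 (limma adjusted p = 7.69e-05). In that comparison Rag1 differed by -1.92 (adjusted p = 0.00824) and Rag2 by -1.39 (adjusted p = 0.0197). Markers of CD4+CD8+ and mature T cells (5 of 7 measured) summed to 218 to 244, 417 to 437 and 305 to 544 in the 3 groups. Cd8a rose by 1.21 (limma adjusted p = 0.00111) and Cd8b1 by 1.40 (adjusted p = 0.000455) from wild-type to TCF-1 KO DN3 cells. Cd4 had group means of 4.99, 5.12 and 4.98. Between lymphomas and TCF-1 KO DN3 cells none of these 5 was called. Summed signals of fibroblast markers ranged from 220 to 268 over all arrays and those of erythroid markers from 166 to 193. Myeloid markers ranged from 296 to 323, 297 to 334 and 286 to 389 in the 3 groups, and endothelial markers from 277 to 352, 257 to 285 and 294 to 391. Of 3 endothelial markers tested, Pecam1 rose by 0.64 from TCF-1 KO DN3 cells to lymphomas (SE 0.16, limma adjusted p = 0.0297) and 2 were not called. Pecam1 had group means of 7.46, 6.94 and 7.58. Its difference between lymphomas and wild-type DN3 cells was 0.12 (adjusted p = 0.85). The part of these other cell types in the results was not tested.

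Promoter windows were compared because the genes differed together between DN3 cells and lymphomas. RefSeq (GRCm38.p6) held starts for 9 of the 10 genes, in 12 windows of 250 bases before the start, and Rcn1 was not among them. Shown are the 3 windows with the letters ACGTG (the core that HIF binds) and the Myl10 window with CTTTGA (the core that TCF and LEF factors bind), with matches on either strand in capitals. On the reverse strand CTTTGA reads TCAAAG.
Egln3 (chr12:54203875-54204124, minus strand, higher in lymphomas): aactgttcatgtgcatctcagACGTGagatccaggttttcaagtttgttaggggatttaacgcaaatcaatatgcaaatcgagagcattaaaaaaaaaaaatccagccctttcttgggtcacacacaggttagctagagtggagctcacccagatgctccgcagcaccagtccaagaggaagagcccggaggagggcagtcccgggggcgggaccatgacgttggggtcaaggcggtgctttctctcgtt
Rnf130 (chr11:50025081-50025330, plus strand, lower in lymphomas): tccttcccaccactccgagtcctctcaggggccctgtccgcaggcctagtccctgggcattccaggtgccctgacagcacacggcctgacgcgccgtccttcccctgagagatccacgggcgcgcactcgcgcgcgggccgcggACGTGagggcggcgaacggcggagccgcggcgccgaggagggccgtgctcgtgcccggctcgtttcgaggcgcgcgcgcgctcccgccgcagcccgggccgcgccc
Pld4 (chr12:112760405-112760654, plus strand, lower in lymphomas): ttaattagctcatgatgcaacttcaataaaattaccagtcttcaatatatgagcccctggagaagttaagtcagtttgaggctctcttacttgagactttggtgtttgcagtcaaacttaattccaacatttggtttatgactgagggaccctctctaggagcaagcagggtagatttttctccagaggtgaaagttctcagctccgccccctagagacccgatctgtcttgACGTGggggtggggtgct
Myl10 (chr5:136693927-136694176, plus strand, the most downstream of its 3 windows, lower in lymphomas): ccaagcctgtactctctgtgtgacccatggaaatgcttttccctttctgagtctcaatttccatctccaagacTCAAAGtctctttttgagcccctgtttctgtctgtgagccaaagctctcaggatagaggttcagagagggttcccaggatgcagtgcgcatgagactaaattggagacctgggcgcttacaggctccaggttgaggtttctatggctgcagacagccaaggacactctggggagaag

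The ACGTG match began 229 bases before the start in Egln3, 106 in Rnf130 and 18 in Pld4, and CTTTGA 177 bases before the start in Myl10. Of all 32851 RefSeq windows 16.6% held ACGTG and 13.8% held CTTTGA. The genes with ACGTG thus included 1 that was higher and 2 that were lower in the lymphomas. The E-box CANNTG was found in 6 of the 9 genes (66.2% of all windows). TGTGGT, the letters that Runx factors bind, was found in Uaca alone (14.0% of all windows), and the ETS letters CCGGAA in Myl10 alone (12.0%). CpG pairs numbered 35 in the window of Drd5, 38 in those of Sbf2 and Slc44a1 and 39 in that of Rnf130, against a median of 6 over all windows. The Pld4 window held 3 and the Myl10 windows 2 to 4. A match describes these letters only.

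All 10 genes were bright enough to be tested. In the contrast that chose them, 6 of 10 were called higher and 4 lower, where 4.5% and 2.12% of all 14953 genes were called (limma adjusted p under 0.05). Without TCF-1 KO replicate 1 8 were called, all but Slc44a1 and Drd5, against 3.06% of all genes in either direction. Lymphoma and TCF-1 KO DN3 arrays did not overlap for any of the 10, in a background of 7.34% higher and 6.23% lower. Against wild-type DN3 cells, which share the same lymphoma arrays, the calls were again 6 higher and 4 lower (background 2.96% and 2.86%). The arrays did not overlap there either (background 5.28% and 5.04%). Nothing is read from these counts, since the choice fixed them.

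**Figure D1:**
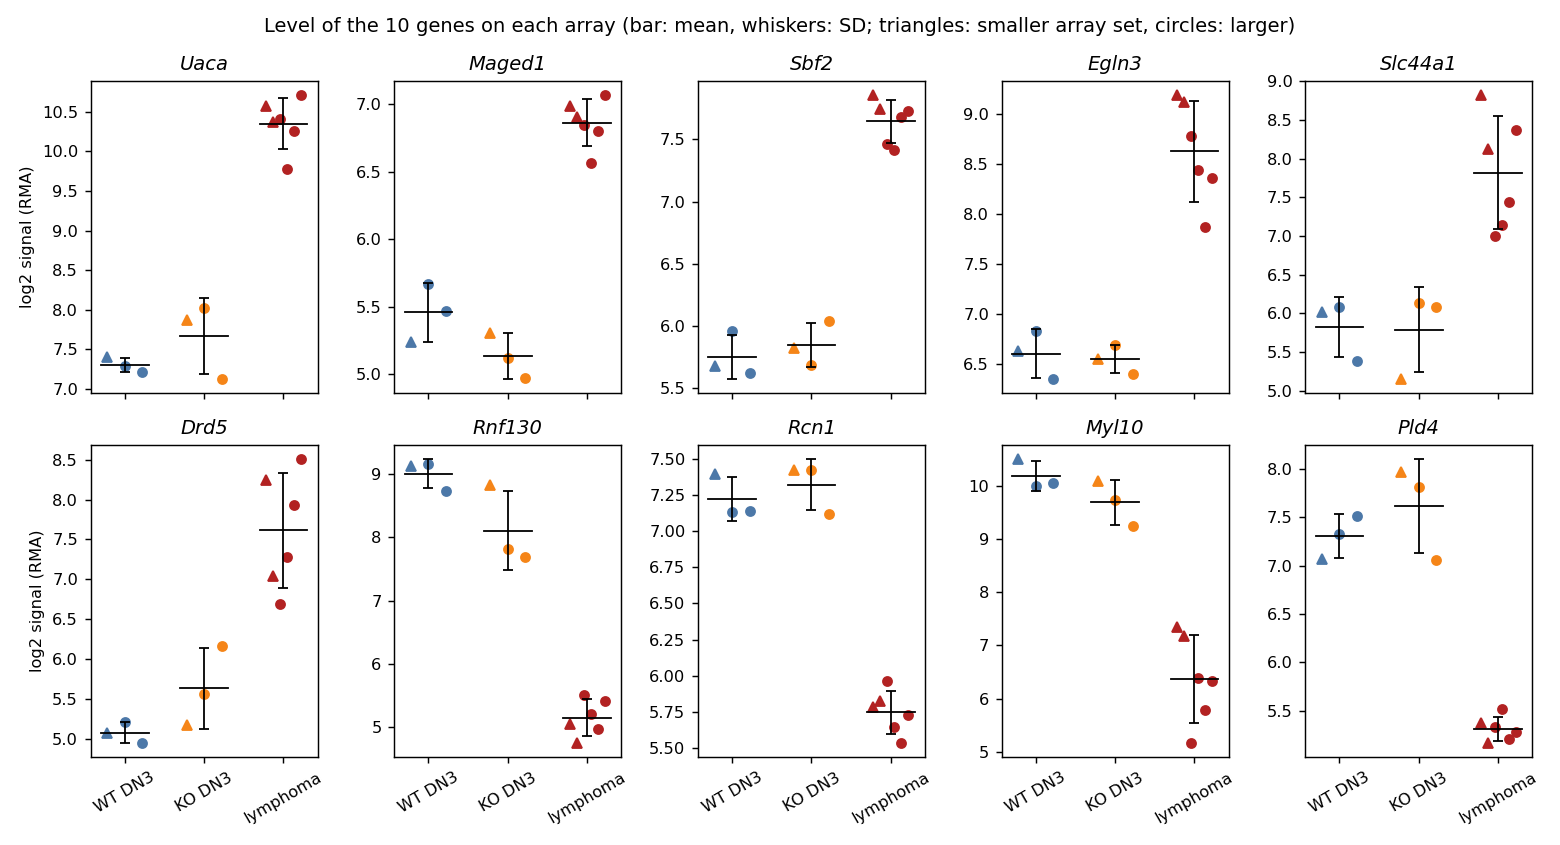
Log2 signal of each gene on every array, by group (3 wild-type DN3, 3 TCF-1 KO DN3, 6 lymphomas), with bars at the group mean and whiskers of 1 SD. Triangles mark the smaller array set and circles the larger; in every panel all 6 lymphomas lie on one side of both DN3 groups, with Drd5 the closest, 0.52 from the nearest TCF-1 KO array.

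Uaca, a coiled-coil and ankyrin repeat protein that binds the apoptosome subunit Apaf1, had the largest difference among the higher genes. Its log2 signal was 7.39, 7.29 and 7.21 on the wild-type arrays and 7.87, 8.02 and 7.12 on the TCF-1 KO DN3 arrays, and the lymphomas ran from 9.78 over a median of 10.39 to 10.71. The lymphomas lay 1.76 above the highest TCF-1 KO array, whose group spread over 2 levels, with replicate 3 at the wild-type level. The mean difference between lymphomas and TCF-1 KO DN3 cells was 2.68 (SE 0.22), or 6.41-fold, the third largest rise of all genes tested.

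Egln3 was at 6.63, 6.83 and 6.35 on the wild-type arrays and at 6.55, 6.69 and 6.40 on the TCF-1 KO arrays. The DN3 groups overlapped throughout. In the lymphomas it ran from 7.87 over a median of 8.61 to 9.19, with lymphomas 1 and 2 of the smaller array set highest (9.19 and 9.12) and lymphoma 5 lowest. The difference from TCF-1 KO DN3 cells was 2.08 (SE 0.25), 2.61 within the smaller array set and 1.82 within the larger.

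Slc44a1 was at 6.02, 6.09 and 5.38 on the wild-type arrays and at 5.15, 6.13 and 6.08 on the TCF-1 KO arrays, and the lymphomas ran from 7.00 over a median of 7.78 to 8.82. TCF-1 KO replicate 1, of the smaller array set, was the lowest DN3 array, and lymphoma 1 of the same set was the highest tumour. The difference between lymphomas and TCF-1 KO DN3 cells was 2.03 (SE 0.38), 3.32 within the smaller set and 1.39 within the larger. A second row of this gene, with other probes, was at 5.65 in TCF-1 KO DN3 cells and 6.35 in lymphomas, a difference of 0.70 in the same direction.

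Drd5 was at 5.07, 5.21 and 4.95 on the wild-type arrays and at 5.17, 5.56 and 6.17 on the TCF-1 KO arrays. The lymphomas ran from 6.69 over a median of 7.60 to 8.51, with lymphomas 6 and 1 highest. The tumours spread widely, and the lowest stood 0.52 above TCF-1 KO replicate 3. The difference was 1.98 (SE 0.37), or 3.95-fold, 2.47 and 1.74 within the smaller and larger sets.

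Sbf2, a catalytically inactive member of the myotubularin family that activates Rab GTPases, and Maged1, an X-linked adaptor of the MAGE family that binds the p75 neurotrophin receptor, had narrow ranges. Sbf2 was at 5.68, 5.96 and 5.62 on the wild-type arrays, at 5.83, 5.68 and 6.04 on the TCF-1 KO arrays, and from 7.42 over 7.70 to 7.85 in lymphomas. Maged1 was at 5.24, 5.67 and 5.47, at 5.31, 5.12 and 4.97, and from 6.57 over 6.88 to 7.07. The lymphomas as a group were thus separated from DN3 cells by more than their own range of 0.44 in Sbf2 and 0.50 in Maged1. Their differences from TCF-1 KO DN3 cells were 1.80 (SE 0.12) and 1.73 (SE 0.12).

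Among the lower genes, Myl10 had the largest difference. It was at 10.49, 9.99 and 10.05 on the wild-type arrays and at 10.09, 9.73 and 9.24 on the TCF-1 KO arrays, and the lymphomas ran from 5.17 over a median of 6.36 to 7.35. Lymphoma 3 was lowest, and lymphomas 1 and 2 of the smaller array set were highest, at 7.35 and 7.17. The difference from TCF-1 KO DN3 cells was -3.32 (SE 0.40), the second largest fall of all genes tested. It was -2.83 and -3.57 within the smaller and larger sets.

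Rnf130, a transmembrane RING ubiquitin ligase related to fly goliath, was at 9.12, 9.15 and 8.74 on the wild-type arrays and at 8.82, 7.81 and 7.69 on the TCF-1 KO arrays. In lymphomas it ran from 4.76 over 5.14 to 5.52. Lymphoma 2, the lowest, was below 4.78, the mean level required of tested genes. TCF-1 KO replicate 1 lay among the wild-type values and replicates 2 and 3 below them, while all tumours were more than 2 log2 units below both groups, with a gap of 2.17 to the nearest TCF-1 KO array. The difference from TCF-1 KO DN3 cells was -2.95 (SE 0.23), or 7.73-fold, -3.92 and -2.47 within the smaller and larger sets. Against wild-type DN3 cells it had the largest fall of all genes tested.

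Pld4 was at 7.07, 7.33 and 7.51 on the wild-type arrays and at 7.97, 7.81 and 7.06 on the TCF-1 KO arrays, and from 5.17 over 5.31 to 5.52 in lymphomas. The 6 tumours were close together and 1.54 below the nearest TCF-1 KO array. Their Pld4 values lay around the medians of the lymphoma arrays, 5.30 to 5.35. At so dim a level, differences among tumours may be understated. Its difference was -2.30 (SE 0.17). B cells and plasmacytoid dendritic cells are known to express Pld4, so the markers of these cells are given beside it. Summed linear signals of the B cell markers (6 of 7 measured) were 197 to 205 in wild-type DN3 cells, 201 to 227 in TCF-1 KO DN3 cells and 157 to 172 in lymphomas, with Cd79a at group means of 4.10 to 4.13 and Ms4a1 at 3.85 to 3.94, both below the level of genes tested. Cd79b, the 1 of 3 tested B cell markers that was called, had means of 6.13, 5.99 and 5.17 and fell with Pld4 by 0.82 from TCF-1 KO DN3 cells to lymphomas (SE 0.12, limma adjusted p = 0.00186). Those of the plasmacytoid dendritic cell markers (7 of 8 measured) were 788 to 1066, 770 to 1119 and 406 to 427. Siglech, which defines these cells, had group means of 5.01, 5.05 and 4.93. Of the 7 tested, 2 fell in the same comparison, Ly6d and Spib. Ly6d, also a gene of early lymphocytes, had means of 8.95, 9.02 and 6.63. It was the brightest of the 7 in each group and so weighed most in their summed signals. Spib fell by 0.55 (SE 0.09, limma adjusted p = 0.00553). Bst2, with means of 7.05, 7.04 and 6.44, was not called (adjusted p = 0.0569). Siglech, Irf8, Cox6a2 and Pacsin1 were not called either, with differences of -0.12, 0.08, -0.14 and -0.14. Thymic epithelial markers summed to 277 to 323, 314 to 393 and 244 to 285. From TCF-1 KO DN3 cells to lymphomas Epcam fell by 1.06 (SE 0.15, limma adjusted p = 0.00191) and Foxn1 by 0.36 (SE 0.09, adjusted p = 0.0356). Between lymphomas and wild-type DN3 cells Epcam differed by -1.05 (adjusted p = 0.000522) and Foxn1 by -0.06 (adjusted p = 0.85). The other 4 of these markers were not called. The part of such cells in the lower Pld4 was not tested.

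Rcn1, an EF-hand calcium-binding protein of the endoplasmic reticulum lumen, was at 7.40, 7.13 and 7.14 on the wild-type arrays, at 7.42, 7.42 and 7.12 on the TCF-1 KO arrays, and from 5.53 over 5.76 to 5.96 in lymphomas. The DN3 groups overlapped and the tumours lay 1.16 below the nearest TCF-1 KO array. The difference of -1.57 (SE 0.11) was the smallest among the 10 genes.

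The comparison of TCF-1 KO with wild-type DN3 cells asked how much of each change was present in DN3 cells without TCF-1. The wild-type arrays were not used to choose the genes, but the TCF-1 KO arrays were. None of the 10 was called in the main fit, which had no term for pairing (limma adjusted p under 0.05, background 1.99% in either direction). With the replicate number as a block 2 of the 10 were called, against 9.23% of all genes. For none of the 10 were the DN3 groups free of overlap, against 22% of all genes. Absolute differences had a median of 0.32 over the 10 genes and of 0.14 over all genes tested. A value that was not called is not shown to be unchanged.

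Rnf130 had the largest difference between the DN3 groups, -0.90 (SE 0.26, limma adjusted p = 0.114), which was 23.3% of its difference between lymphomas and wild-type cells. With the replicate number as a block it was called (adjusted p = 0.00534), as it was with the array set as a term (0.0124), within the larger array set (-1.19, adjusted p = 0.00514) and without TCF-1 KO replicate 1 (-1.25, adjusted p = 0.00249). Over all settings its adjusted p ran up to 0.377. Drd5 differed by 0.56 (SE 0.21, adjusted p = 0.224, from 0.0506 to 0.521 over the settings), 21.9% of its difference between lymphomas and wild-type cells. Without TCF-1 KO replicate 3 it differed by 0.29. Myl10 differed by -0.49 (SE 0.21, adjusted p = 0.273) and passed the threshold under the replicate block alone (adjusted p = 0.0253; the highest of all settings was 0.621), and its difference without TCF-1 KO replicate 3 was -0.27. With that block 6.35% of all genes were called lower, and 2 of the 10 genes were.

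Uaca differed between the DN3 groups by 0.37 (SE 0.20, limma adjusted p = 0.382) and Pld4 by 0.31 (SE 0.22, adjusted p = 0.501). In both, TCF-1 KO replicates 1 and 2 were above all wild-type arrays and replicate 3, the array with low Xist, was below all of them. Without that array Uaca differed by 0.65 and Pld4 by 0.59, whereas without TCF-1 KO replicate 2 Uaca differed by 0.20 and Pld4 by 0.21. Pld4 differed by 0.13 without TCF-1 KO replicate 1, by 0.19 without wild-type replicate 1 and by 0.01 within the larger array set. Maged1 differed by -0.32 (SE 0.14, adjusted p = 0.293). Sbf2, Egln3, Slc44a1 and Rcn1 differed by 0.10 or less, with SE between 0.13 and 0.26. Uaca, Sbf2, Drd5, Rnf130 and Myl10 had the same sign in both steps, and the other 5 did not. The steps share the TCF-1 KO arrays.

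**Figure D2:**
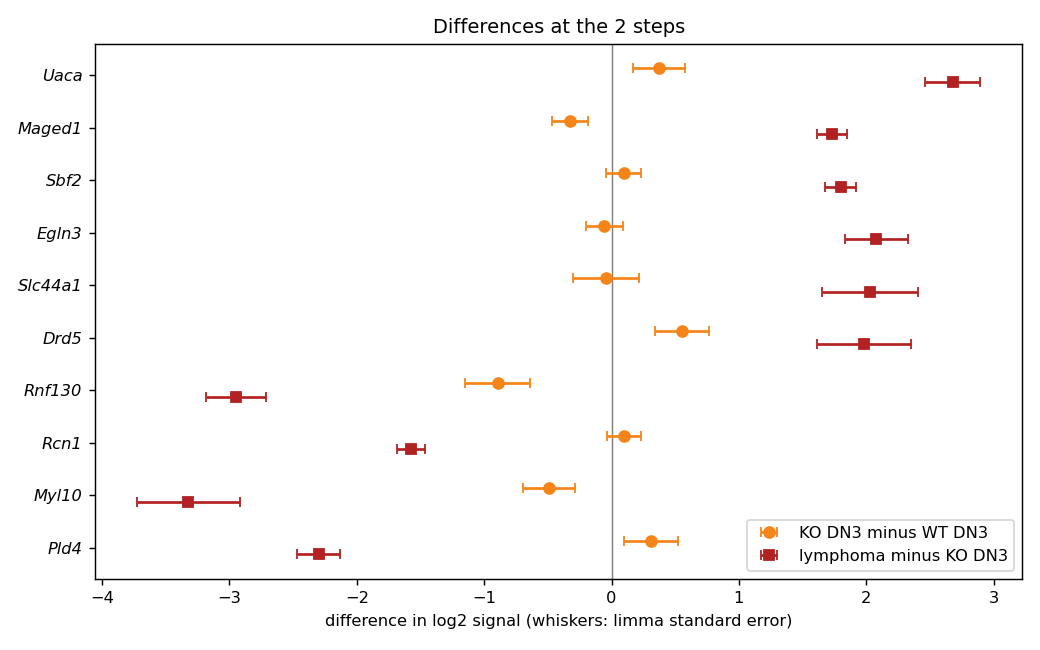
Differences in log2 signal between TCF-1 KO and wild-type DN3 cells (circles) and between lymphomas and TCF-1 KO DN3 cells (squares) for the 10 genes, with limma standard errors. The circles lie between -0.90 (Rnf130) and 0.56 (Drd5) and the squares between -3.32 (Myl10) and 2.68 (Uaca); both steps share the TCF-1 KO arrays.

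The tumours varied unequally in these genes. The SD over the 6 lymphomas was 0.82 in Myl10, 0.73 in Slc44a1, 0.72 in Drd5, 0.50 in Egln3 and 0.32 in Uaca, and each of these lay above the 90th percentile of all genes tested. In Pld4 it was 0.13, at the 34.6th percentile, and in Rcn1 0.15, at the 47.8th. Pld4 was dim in the tumours, where spread may be understated. The median SD over all genes was 0.15. Lymphoma 1 was the highest tumour for 4 genes (Sbf2, Egln3, Slc44a1 and Myl10) and lymphoma 6 for 3 (Uaca, Maged1 and Drd5), and neither was lowest for any. Lymphoma 4 was lowest for Uaca, Maged1 and Sbf2, and lymphoma 3 for Slc44a1, Drd5 and Myl10. Averaged over the 10 genes, the distance of a tumour from the TCF-1 KO mean ran from 2.00 (lymphoma 4) to 2.42 (lymphoma 1). The smallest single distance was 1.05 (Drd5 in lymphoma 3) and the largest 4.52 (Myl10 in the same tumour).

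**Figure D3:**
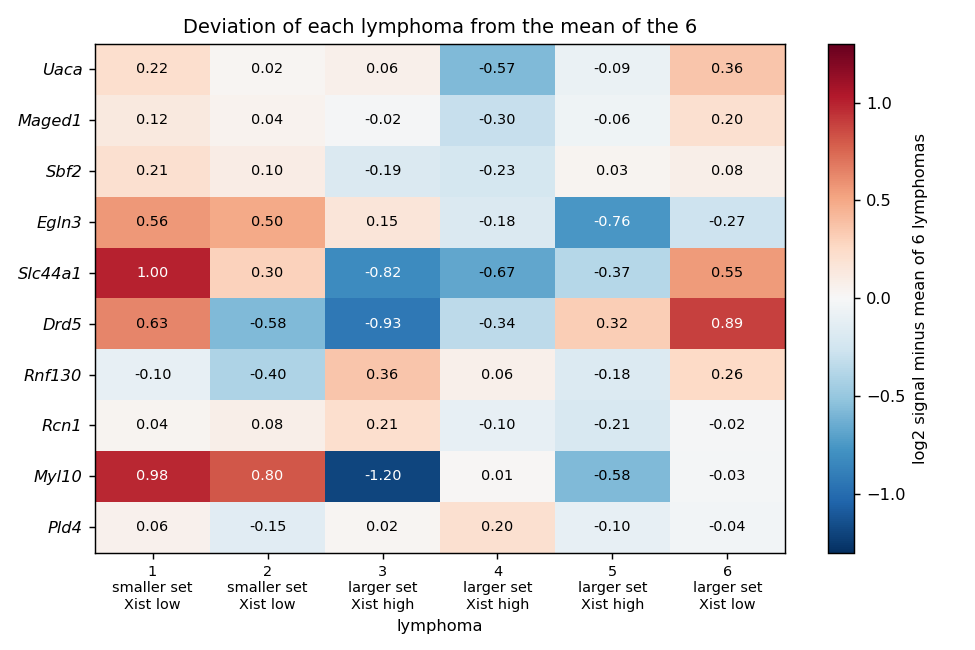
Log2 signal of each of the 6 lymphomas minus the mean of the 6, for each gene, with the array set and Xist level of the tumour below its column. Myl10 spans -1.20 (lymphoma 3) to 0.98 (lymphoma 1), whereas Pld4 stays between -0.15 and 0.20.

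The levels of the tumours are given next by array set and by Xist, as values with no test. Lymphomas 1 and 2 had a mean Myl10 of 7.26 and the other 4 a mean of 5.92. Egln3 stood at 9.16 against 8.36 in the same division. The 3 lymphomas with low Xist were all above the 3 with high Xist in Maged1 (means 6.99 and 6.74), Sbf2 (7.77 and 7.52) and Slc44a1 (8.44 and 7.20). These 3 genes are named because their values did not overlap, and in the other 7 genes they did. With 3 tumours against 3, an exact permutation test on the absolute difference cannot reach a p under 0.05. Since lymphomas 1 and 2 have both low Xist and the smaller array set, and lymphoma 6 alone has low Xist in the larger set, the parts of sex and array set in this spread were not tested.

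Of 45 pairs of the 10 genes over the 6 lymphomas, 29 correlated above 0 and none passed after adjustment. Uaca and Maged1 had Pearson's r = 0.99 (exact permutation p = 0.00278, adjusted p = 0.125) and Spearman's rho = 0.94 (exact p = 0.0167, adjusted p = 0.75). Without the 2 tumours farthest from the median of Uaca r was 0.90, over the 4 left. Sbf2 and Slc44a1 had r = 0.92 (exact p = 0.00833, adjusted p = 0.188) and rho = 0.89 (exact p = 0.0333, adjusted p = 0.75), and r = 0.90 without the 2 farthest. Each r over 4 tumours is imprecise. The array sets hold 2 and 4 of the lymphomas, and no value is given within each.

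The families and pathways around the 10 genes were described by 11 lists with 117 genes tested. Between lymphomas and TCF-1 KO DN3 cells 6.84% of list genes were called higher and 1.71% lower, beside 4.5% and 2.12% of all genes. Between DN3 groups none was called higher (background 0.568%; limma) and 3 of 117 lower (2.56%, background 1.42%). Whether a relative differed from the member in its change was not tested.

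Of the HIF pathway, 19 HIF-induced genes were tested. In lymphomas against TCF-1 KO DN3 cells 4 rose, 2 fell and 13 did not pass, with a median difference of 0.09 (all genes -0.03). Bnip3l, a mitophagy receptor, rose by 0.70 (SE 0.14, limma adjusted p = 0.012), Pdk1, the kinase that blocks pyruvate entry into mitochondria, by 0.58 (SE 0.13, adjusted p = 0.0206), Ddit4 by 0.46 and Kdm3a by 0.51. Ndrg1 fell by 0.80 (SE 0.14, adjusted p = 0.00536) and Vegfa, the vascular growth factor, by 0.62 (SE 0.15, adjusted p = 0.029), so the genes known to respond to HIF moved in both directions. Against wild-type DN3 cells 1 rose, 2 fell and 16 did not pass, and Bnip3l (0.08), Pdk1 (-0.29) and Kdm3a (0.22) were not called there. Pdk1 had fallen by 0.87 in TCF-1 KO against wild-type DN3 cells (adjusted p = 0.00434), and its arrays were at 7.25, 7.09 and 7.27 in wild-type cells, 6.32, 6.28 and 6.39 in TCF-1 KO cells and 6.60 to 7.18 in lymphomas. Of 8 HIF regulators 1 rose: Epas1, which encodes HIF-2alpha, by 0.86 (SE 0.20, adjusted p = 0.0239), from 5.85, 5.19 and 5.73 on the TCF-1 KO arrays to between 6.07 and 6.84 in lymphomas. Of the relatives of Egln3, Egln1 differed by 0.20 (SE 0.10, adjusted p = 0.259) and Egln2 by -0.16 (SE 0.11, adjusted p = 0.389).

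Among 8 tested genes of choline uptake and phosphatidylcholine synthesis, Cept1, which joins the choline head group to diacylglycerol, rose by 0.68 (SE 0.12, limma adjusted p = 0.0070) and 7 did not pass. The Slc44a1 relative Slc44a2 differed by 0.02 (SE 0.17). Of 15 tested genes of dopamine receptors and cAMP signalling 1 rose: Prkar2a, a regulatory subunit of protein kinase A, by 1.59 (SE 0.15, adjusted p = 9.03e-05). Prkar2a was at 5.28, 5.16 and 5.11 on the wild-type arrays, at 4.56, 4.44 and 4.71 on the TCF-1 KO arrays, and from 5.91 to 6.67 in lymphomas, so the 3 groups did not overlap. All 3 TCF-1 KO arrays lay below 4.78, the mean level required of tested genes, so both of its differences from that group are measured against a dim signal. Between DN3 groups it fell by 0.61 (adjusted p = 0.0281), and this difference shares the dim TCF-1 KO arrays with the other. Drd1, Drd2, Drd3 and Drd4 differed between lymphomas and TCF-1 KO DN3 cells by -0.30, -0.02, -0.19 and -0.21, none called.

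Of 11 myosin light chain genes and partners Myh10, a non-muscle myosin heavy chain, rose by 0.79 (SE 0.20, limma adjusted p = 0.0336), and 10 did not pass. The widely expressed regulatory light chains Myl12a and Myl12b differed by -0.12 (SE 0.09) and -0.16 (SE 0.17), beside the difference of Myl10 given above. Of 7 PA-TM-RING ligases, the family of Rnf130, none was called between lymphomas and TCF-1 KO DN3 cells. Rnf13 had fallen between DN3 groups by 0.64 (adjusted p = 0.0134), from 6.56, 6.61 and 6.58 to 5.93, 5.98 and 5.92, and was at 5.75 to 6.11 in lymphomas. It thus stood at the lower level in all arrays without TCF-1.

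No gene was called between lymphomas and TCF-1 KO DN3 cells among 8 genes of endosomal nucleic acid sensing, 7 MAGE family and p75 partners, 15 endoplasmic reticulum calcium-binding proteins and chaperones, 11 myotubularins and 8 genes of the apoptosome (limma adjusted p under 0.05). Pld3, the closest relative of Pld4, differed by 0.47 (SE 0.15, adjusted p = 0.0870), in the direction opposite to Pld4. Rcn2 and Calu, relatives of Rcn1, differed by 0.09 (SE 0.13) and 0.29 (SE 0.18), the Sbf2 relative Sbf1 by -0.06 (SE 0.10) and Apaf1, the partner of Uaca, by -0.01 (SE 0.10). Against wild-type DN3 cells Slc15a4, a transporter of endolysosomes that is needed for Toll-like receptor signals, fell by 0.50 (adjusted p = 0.00858), and Xbp1, a transcription factor of the unfolded protein response, by 0.68 (adjusted p = 0.000508). Slc15a4 differed by -0.47 between DN3 groups and by -0.03 between lymphomas and TCF-1 KO DN3 cells. Xbp1 differed by -0.37 and -0.32, and none of these differences was called.

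**Figure D4:**
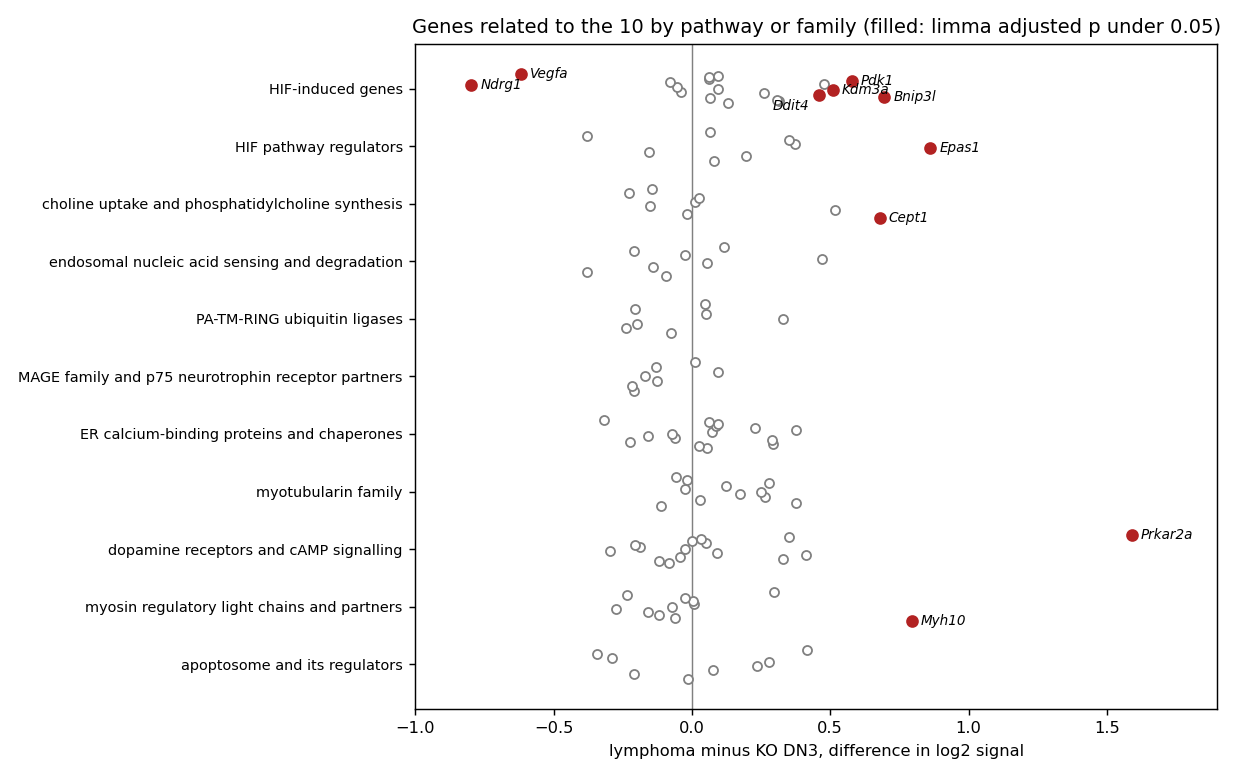
Differences in log2 signal between lymphomas and TCF-1 KO DN3 cells for the tested genes of 11 lists related to the 10 genes by family or pathway; filled points passed limma's adjusted p under 0.05 and are named. Prkar2a lies furthest right at 1.59 and Ndrg1 furthest left at -0.80, and 6 of the 11 lists hold no filled point.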

How the data were processed

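RNA of sorted cells was amplified with the NuGEN WT-Ovation PicoRNA kit and hybridised to Affymetrix Mouse Gene arrays, per the labels' protocols. The authors deposited log2 values; the submitters' processing notes name RMA and Partek, without versions, and base 2 is inferred from the range of the values. RMA includes quantile normalisation, which brings arrays to similar distributions, so changes in total RNA are not seen. Dim or saturated genes have understated differences.

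Of 35556 rows 21789 had 1 gene symbol in the platform annotation, of which 21698 matched RefSeq by gene identifier. The row with the highest mean stood for a gene. Genes under the 25th percentile of mean signal (4.78) were left out. Each comparison was fitted on its 2 groups with limma 3.58.1 in R 4.3.3 (two-sided, Benjamini-Hochberg over 14953 genes; called at an adjusted p under 0.05), and checked on simulated data. Labels say biological replicates without relating the mice, so the spread behind each p-value is that of these samples and may be technical. All 10 genes are named; of list genes, up to 3 called per list and comparison with the lowest p, with direct relatives, Vegfa, Kdm3a, Slc15a4, Xbp1 and the marker genes added after their values were seen. Promoter windows are from the RefSeq table given (GRCm38.p6) and were searched on both strands. The genes and lists were chosen with earlier results of these data known. The level of the deleted gene and 1 neighbouring gene that was called are not reported here.

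Same-numbered wild-type and TCF-1 KO arrays correlated in their deviations at 0.51, 0.42 and 0.25, which was taken as pairing. The labels do not state a pairing, and the main fit left it out. The replicate block took it in, with 1380 genes called between DN3 groups in place of 298. Number 1 is also the smaller array set. Same-numbered TCF-1 KO and lymphoma arrays correlated at 0.38, -0.26 and 0.11 and were not taken as paired.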

Additional observations from a re-analysis of the deposited data

How the results depend on the processing

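The alternatives were centring or repeated quantile normalisation, 2 other filters, averaged rows, another variance model, 1 fit to all arrays, array set, sex, replicate block and leaving out each array. No difference of the 10 genes between lymphomas and either DN3 group changed sign under any of these. Against TCF-1 KO DN3 cells Egln3 ran from 1.82 to 2.48 (replicate block, with lymphomas 1, 2 and 3 alone) and Slc44a1 from 1.36 (rows averaged) to 2.20. Within the larger set 8 of the 10 were called, against 2.17% of all genes in either direction. Without TCF-1 KO replicate 1 it was again 8, against 3.06%. Between DN3 groups, calls appeared for Rnf130 and Myl10 alone, as given above; Egln3 and Slc44a1, not called under any setting, took both signs. Counts over all genes moved more. Between DN3 groups, 298 calls became 754 with the array set as a term, 144 in the larger set, 126 with sex as a term, 1380 with the replicate block and 57 to 443 without 1 array (57 without wild-type replicate 2). TCF-1 KO replicate 3 was the only DN3 array with low Xist, so the sex term here amounts to leaving it out, which gave the same 126. Sex was thus not separately adjusted for between DN3 groups. The split of 85 higher and 213 lower became 94 and 145 with repeated quantile normalisation. Between lymphomas and TCF-1 KO DN3 cells, 990 became 1702 with the array set as a term, 325 in the larger set and 431 to 1361 without 1 array (457 without TCF-1 KO replicate 1 and 431 without replicate 3). Between lymphomas and wild-type DN3 cells, 871 became 549 in the larger set and 560 to 872 without 1 array (564, 560 and 570 without wild-type replicates 1, 2 and 3). The replicate block called 999 and 863 in the comparisons with lymphomas. There it kept lymphomas 1, 2 and 3 alone, whose numbers were not taken as pairing. The causes were not tested.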

Other observations

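Genes next to the 10 on the chromosomes were compared in the order of the RefSeq table, 3 tested genes on each side of each member. Of these 60 neighbours 3 were higher in lymphomas than in TCF-1 KO DN3 cells and none lower, in a background of 4.5% and 2.12% (limma adjusted p under 0.05). Swap70, an exchange factor of the actin cytoskeleton next to Sbf2, rose by 0.83 (SE 0.12, adjusted p = 0.00197). Of the 3, 2 lay near Egln3, and of these Snx6, a sorting nexin, rose by 0.75 (SE 0.16, adjusted p = 0.0147). Between lymphomas and wild-type DN3 cells Swap70 differed by 0.32 (limma adjusted p = 0.126) and Snx6 by 0.38 (adjusted p = 0.325), neither called. Tle3, a corepressor gene next to Uaca, fell by 0.57 between DN3 groups (adjusted p = 0.0363) and stood at 7.02 in TCF-1 KO DN3 cells and 7.18 in lymphomas.

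The genes with the pattern most like each member over the 12 arrays are given as a description; the arrays share their groups and array sets, which raises any such correlation. Uaca was most like Ctnnd1 (Pearson's r = 0.99, 0.81 over the 6 lymphomas), Maged1 like Il6st (0.99), Sbf2 like Rell1 (0.98), Egln3 like St8sia4 (0.98) and Gtf2e2 (0.98, and 0.99 over the lymphomas) and Slc44a1 like Oxa1l (0.94). Drd5 was most like Acaa2 (0.96) and then Irf4 (0.95), Rnf130 like Zdhhc14 (0.98), Rcn1 like Mcoln2 (0.98), Myl10 like Rab44 (0.98) and Pld4 like Slc25a12 (0.98). In second place for Maged1 stood Sbf2 (0.97), and for Pld4 stood Rcn1 (0.97, and -0.04 over the lymphomas).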
